A study of Homo sapiens with 4 samples.

Results

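Interferon and RNA-sensing genes, 39 in all, were followed in RNA of IGROV1-R10, a human ovarian cancer cell line, after cells had taken up a synthetic microRNA duplex. The genes came from a list of RNA sensors, their signalling factors and interferon-stimulated genes, and all 39 were found among the 60554 genes of the count table by position. A mean normalised count of at least 50 over the libraries was reached by 23 of them, and these are called measured below. Transfection, 24 h after seeding and at 60 nM, was with biotin-labelled miR-491-5p or, in the control arm, with a biotin-labelled worm microRNA that the design text names cel-miR-65. Nuclei were spun out of the lysate, 10% of it was set aside as the input, and what was left spent 4 h with streptavidin beads that were then washed 5 times to give the pull-down. The 4 groups are listed throughout in 1 order, miR-491-5p input, miR-491-5p pull-down, control input, control pull-down. Each group was 1 library made from the pooled RNA of 3 experiments, so differences between transfections could not be checked against replicates and carry no p-value. Both arms had received a duplex, and no sample without one was used here, so a response common to both duplexes does not show in their ratio.

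Cells read double-stranded RNA as a sign of infection. RIG-I-like receptors in the cytoplasm signal through MAVS on mitochondria, and TLR3 signals from endosomes, and both routes reach the kinase TBK1, which activates IRF3 so that interferon is made. Secreted interferon acts through its receptor, Janus kinases and a complex that holds STAT2 and IRF9, which switches on the interferon-stimulated genes, among them sensors of the same pathway, RNA-binding proteins that block viral RNA, membrane proteins that hinder virus entry or release, and the ubiquitin-like modifier ISG15.

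The transfected microRNA and an element of the promoters are shown because the first is the RNA whose biotin was pulled on and the second is a feature shared by many of the listed genes. Mature sequences and windows are those of RefSeq on GRCh38.p14. In miR-491-5p (chr9:20716120-20716141, plus strand) capitals mark the seed, bases 2 to 8. The interferon-stimulated response element was searched for on both strands as GAAA, any 2 bases and GAAA again, in windows from 250 bases before to 50 after a gene's start. A window was at hand for 30 of the 39 genes, and 19 of those 30 had a match. Matches lay in 23 of their 40 windows (57.5%), against 1255 of all 35116 windows (3.57%). The stretches printed run from 130 bases before to 10 after the start, along the gene's strand, with matches in capitals. They belong to ISG15 (chr1:1013367-1013506, plus strand), IFIT1 (chr10:89392493-89392632, plus strand), IFITM1 (chr11:313910-314049, plus strand) and IFITM3 (chr11:320851-320990, minus strand).
hsa-miR-491-5p: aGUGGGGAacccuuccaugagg
ISG15: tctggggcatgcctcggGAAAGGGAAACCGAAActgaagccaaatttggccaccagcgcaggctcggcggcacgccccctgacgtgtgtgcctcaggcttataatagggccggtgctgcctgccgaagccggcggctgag
IFIT1: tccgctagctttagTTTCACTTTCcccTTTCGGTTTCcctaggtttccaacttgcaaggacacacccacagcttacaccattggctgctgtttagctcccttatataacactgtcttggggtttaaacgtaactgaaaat
IFITM1: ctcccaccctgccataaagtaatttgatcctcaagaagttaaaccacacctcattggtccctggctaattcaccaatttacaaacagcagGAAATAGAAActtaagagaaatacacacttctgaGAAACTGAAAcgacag
IFITM3: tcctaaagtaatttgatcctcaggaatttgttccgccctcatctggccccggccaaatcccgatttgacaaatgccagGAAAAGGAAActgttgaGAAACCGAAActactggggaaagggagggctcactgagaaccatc
Each of these 4 promoters held 2 matches, which overlapped in ISG15 and lay on the opposite strand in IFIT1. A match is a match of letters only and was not tested for binding.

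The libraries held 59588552, 61705443, 47679684 and 62582646 counts, and the 39 genes took 0.161%, 0.192%, 0.149% and 0.163% of them. The reads carried no molecular identifiers, so copies of 1 molecule can count more than once, and both mates of a pair had been counted, so all intervals given are 95% intervals of the counting error of read pairs and cover nothing else. All 10 markers of ovarian epithelium had counts in every library, summing to 107756 to 119347. All but MSLN, with 10, 11, 14 and 9 counts, reached the minimum. None of 10 markers of immune and red blood cells (HBB for the latter) reached the minimum, and they summed to 26 to 91 counts. The control input stood apart in hepatocyte markers, 12 of which summed to 25, 41, 2827 and 27 counts. All 12 had counts in the control input, while HP, FGA, FGB, SERPINA1 and ORM1 were at 0 in the miR-491-5p input. The 8 fibroblast markers summed to 285, 71, 591 and 65 counts.

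Levels were compared between genes only per length, as TPM, read counts scaled by exon length and by each library's total, in the inputs. BST2, tetherin, which holds budding virus at the cell surface, had the highest level, 430 TPM in the miR-491-5p input and 394 TPM in the control input. IFITM3, an endosomal membrane protein that hinders virus entry, followed with 212 and 195 TPM. ADAR, which edits adenosines in double-stranded RNA, had 158 and 170 TPM. EIF2AK2, the kinase PKR that stops translation on binding double-stranded RNA, had 145 and 109 TPM, and TBK1 had 108 and 93.4 TPM. These 5 genes kept that order in both inputs, and IFITM2 (84.2 and 88.5 TPM) and IFIT5 (60.9 and 60.5 TPM) came next. With 1 library per group the spread behind neighbours in this order is not known. Further down, MAVS had 19.0 and 21.8 TPM, and the sensor RIG-I, listed under its older symbol DDX58, had 20.9 and 19.7 TPM. Among the transcription factors IRF3 (18.7 and 20.8 TPM) and STAT2 (18.9 and 11.5 TPM) were the highest. ISG15 had 59.6 and 54.0 TPM, and USP18, the protease that removes it from proteins, 5.31 and 4.83 TPM. TAP1, a subunit of the peptide transporter for antigen presentation, had 3.37 and 5.37 TPM, and IFI35, the highest of the remaining interferon-stimulated genes, 9.30 and 7.95 TPM. TLR3 (0.948 and 0.581 TPM) and OAS3 (0.524 and 0.498 TPM) were the lowest measured genes. In bulk RNA, fewer cells with a transcript and less of it per cell cannot be told apart.

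**Figure D1:**
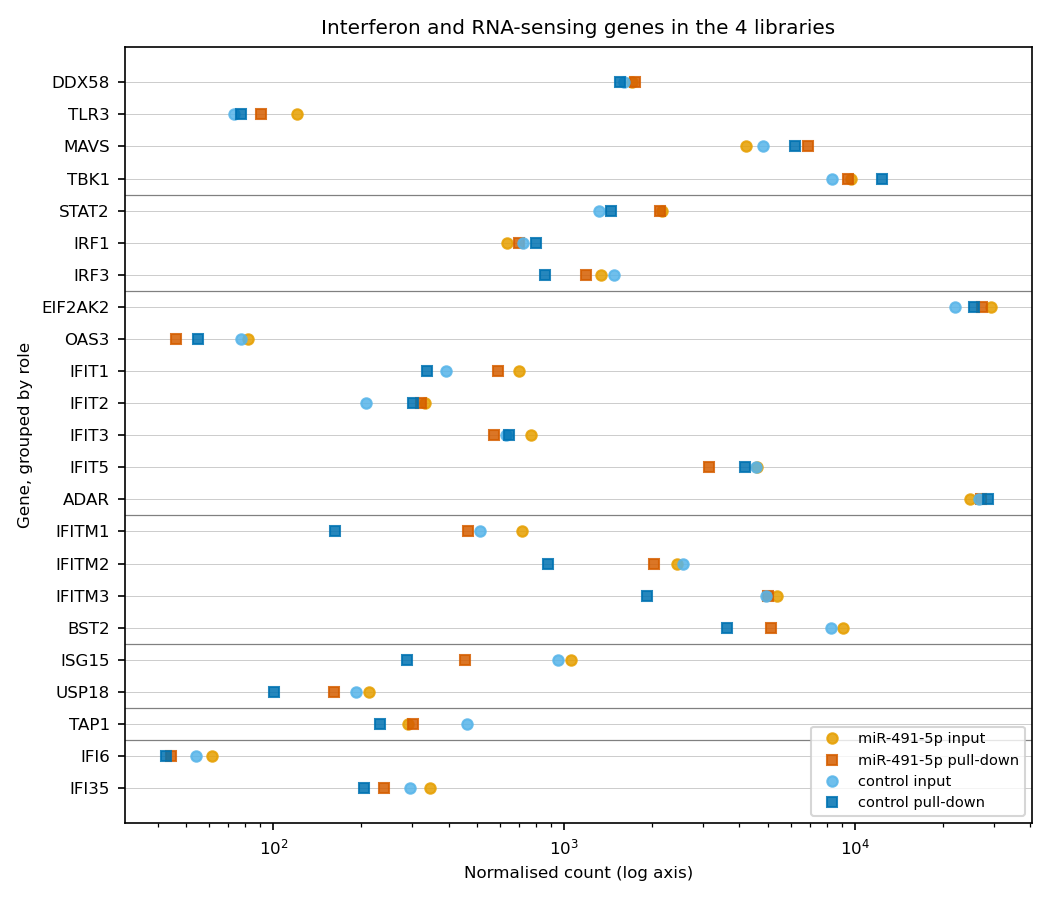
Normalised counts (log axis) of the 23 measured genes in the 4 libraries, with circles for inputs and squares for pull-downs, in order of role. The control pull-down lies apart to the left for IFITM1, IFITM2 and IFITM3, at 163, 882 and 1929.

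The other 16 genes stayed under the minimum and are given as raw counts, among them OAS and MX genes that interferon induces in many cells. OAS2 and UBE2L6, the ISG15-conjugating enzyme, had 0 counts in every library, where 0 allows up to 3 counts per library, or 2.43 to 3.85 normalised counts. OAS1, which makes the messenger that activates RNase L, had 0, 4, 0 and 0 counts. MX1, a dynamin-like GTPase that blocks virus replication, had 40, 61, 16 and 30 counts, and its relative MX2 had 0, 4, 0 and 2. These levels are too low for a ratio, and none is given. The RIG-I-like receptor IFIH1 (MDA5) had 36, 39, 18 and 31 counts, and DHX58 (LGP2) had 10, 10, 6 and 16. The transcription factors IRF7 and IRF9 had 22, 22, 16 and 20 counts and 13, 32, 5 and 15 counts. OASL, a relative of OAS1 that does not make the messenger, had 50, 48, 30 and 14 counts, and the ISG15 ligase HERC5 had 30, 34, 16 and 34. These sensors, factors and effectors stood at or under 61 counts, as the minimum selects for low counts. Others of each kind, among them DDX58, STAT2 and EIF2AK2, were measured. The immunoproteasome subunits PSMB8 and PSMB9 had 0, 12, 4 and 0 counts and 6, 6, 6 and 2 counts. IFI27 had 8, 5, 2 and 8 counts, IFI44 had 6, 16, 4 and 0, and IFI44L had 0, 1, 2 and 0. The 16 genes named in this paragraph are all the listed genes under the minimum.

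The first comparison set the miR-491-5p input against the control input, as a measure of RNA levels after the 2 transfections. No measured gene of the 23 differed by 2-fold with an interval that excluded 0, against 0.656% of all 12662 measured genes higher and 0.498% lower. Values were above 0 for 17 genes and below 0 for 6, where 49% of all genes were above 0. Scaled to total counts, 15 of 22 genes were above 0, against 45.3% of all genes. The median log2 ratio was 0.14 (all genes -0.01). The interval excluded 0 above it for 10 genes and below it for 3, where 23.1% of all genes lay on each side. The values closest to 2-fold belonged to IFIT1, STAT2, TLR3, IFIT2 and, in the other direction, TAP1. The hepatocyte markers differed between the same libraries (25 counts against 2827, or 0.637 against 59.6 summed TPM), and their part in these ratios was not tested.

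Among sensors and adaptors, TLR3 had normalised counts of 120, 90.6, 73.2 and 77.3. Its miR-491-5p input was the highest library and the other 3 lay close together, with a log2 input ratio of 0.71 (interval 0.06 to 1.35). TBK1 had 9701, 9489, 8340 and 12347 normalised counts and an input ratio of 0.22 (0.15 to 0.28). MAVS had 4209, 6889, 4808 and 6198 normalised counts and was slightly lower in the miR-491-5p input, at -0.19 (-0.28 to -0.10). DDX58, with 1710, 1758, 1609 and 1555 normalised counts, had an input ratio of 0.09 (-0.06 to 0.24), which included 0.

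STAT2 stood out among the transcription factors, with normalised counts of 2174, 2142, 1313 and 1453. Both of its miR-491-5p libraries were above both of its control libraries. Input and pull-down of an arm came from the same lysate and are not replicates, and how many of all genes do likewise was not counted. The log2 ratio of STAT2 was 0.73 (0.57 to 0.88) in the inputs and 0.56 (0.43 to 0.69) in the pull-downs. IRF1, an activator of interferon-stimulated genes, had 637, 700, 722 and 801 normalised counts and an input ratio of -0.18 (-0.41 to 0.05). IRF3 had 1337, 1186, 1479 and 859 normalised counts and an input ratio of -0.15 (-0.31 to 0.02).

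The IFIT genes sit next to each other on chromosome 10 and encode proteins with tetratricopeptide repeats, some of which bind viral RNA ends. IFIT1 (chr10:89392546-89406486) had 700, 593, 391 and 337 normalised counts. Both miR-491-5p libraries were above both control libraries, again with input and pull-down of an arm from the same lysate and not replicates. The log2 ratio of IFIT1 was 0.84 (0.56 to 1.12) in the inputs and 0.81 (0.56 to 1.07) in the pull-downs. IFIT2, with 332, 323, 208 and 301 normalised counts, had an input ratio of 0.67 (0.29 to 1.06) but a pull-down ratio of 0.10 (-0.20 to 0.39). Here the control input alone was low. IFIT3 had 770, 573, 630 and 647 normalised counts and an input ratio of 0.29 (0.06 to 0.52). IFIT5, the most abundant of the 4 per length, had 4605, 3140, 4559 and 4171 normalised counts and an input ratio of 0.01 (-0.08 to 0.10). The neighbours thus ran from the largest input ratio of the 23 genes to one near 0.

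EIF2AK2 had 29289, 27405, 21990 and 25665 normalised counts, with 0.41 (0.37 to 0.45) as the input ratio, and 0.09 (0.06 to 0.13) in the pull-downs. ADAR had 24812, 27214, 26586 and 28637 normalised counts, and all of its ratios lay between -0.10 and 0.13. OAS3, with 81.5, 46.1, 77.1 and 55.1 normalised counts, had an input ratio of 0.08 (-0.60 to 0.76). These are the remaining measured proteins that bind double-stranded RNA. TAP1 had 290, 301, 461 and 232 normalised counts and the lowest input ratio, -0.67 (-0.98 to -0.35), with the control input the highest library. The input ratios of BST2, ISG15, USP18, IFITM2, IFITM3, IFI6 and IFI35 lay between -0.06 and 0.23, and IFITM1 had 0.48 (0.23 to 0.73).

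The second comparison followed the design text, in which enrichment is the ratio of the pull-downs over the ratio of the inputs, each taken as miR-491-5p against control. The IFITM genes carried this comparison, being more than 2-fold higher with miR-491-5p in the pull-downs and about level in the inputs, apart from IFITM1. Of the 23 genes 3 were called higher and 0 lower in the pull-downs, where 2.50% and 3.17% of all genes were. For the enrichment 4 were called higher and 0 lower, against 4.35% and 5.10% of all genes. The median log2 enrichment was -0.01 (all genes 0.00), with 11 genes above 0 and 12 below. The interval excluded 0 above it for 8 genes and below it for 5, against 29.6% and 31.0% of all genes. In the pull-downs these counts were 13 and 4, against 34.0% and 33.8%, and the median log2 pull-down ratio was 0.23 (all genes 0.01). Enrichment, pull-down ratio and the bead ratios given further on share libraries and are not independent of each other. The hepatocyte marker counts of 25 and 2827 in the inputs enter the enrichment too, and their part was not tested.

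IFITM3 (chr11:319669-327537, minus strand) had 5389, 5021, 4937 and 1929 normalised counts. Its control pull-down was the low library and the other 3 were close to each other. The pull-down ratio was 1.38 (1.28 to 1.48) and the log2 enrichment 1.25 (1.12 to 1.38), or 2.38-fold. IFITM2 (chr11:307631-315272, plus strand) had 2448, 2042, 2561 and 882 normalised counts, a pull-down ratio of 1.21 (1.06 to 1.36) and an enrichment of 1.28 (1.08 to 1.47), or 2.42-fold. It showed the same low control pull-down. IFITM1 (chr11:313506-315272, plus strand), which acts at the plasma membrane, had 717, 468, 513 and 163 normalised counts, a pull-down ratio of 1.51 (1.18 to 1.85) and an enrichment of 1.03 (0.61 to 1.45), or 2.04-fold. The 3 genes are near-identical in sequence, the span of IFITM2 in the table covers IFITM1, and reads that fit several places or genes had been left out without regard to strand, so the split of counts among them is uncertain. BST2, on chromosome 19 and of another family, had 9075, 5151, 8271 and 3642 normalised counts and an enrichment of 0.37 (0.26 to 0.47).

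TAP1 had an enrichment of 1.04 (0.59 to 1.49), or 2.06-fold, which came from its input ratio of -0.67 more than from its pull-down ratio of 0.37 (0.05 to 0.70). ISG15 had 1058, 456, 955 and 288 normalised counts and an enrichment of 0.51 (0.18 to 0.85). USP18 had 213, 161, 193 and 100 normalised counts and an enrichment of 0.53 (-0.10 to 1.17), whose interval included 0. ISG15 and USP18 had similar pull-down ratios, 0.66 (0.38 to 0.94) and 0.68 (0.21 to 1.15). IRF3 had an enrichment of 0.61 (0.38 to 0.84), or 1.53-fold, again with the control pull-down as the low library. MAVS followed with 0.34 (0.23 to 0.46). IFI6, a mitochondrial and endoplasmic reticulum protein, had 61.6, 44.5, 54.0 and 42.6 normalised counts and an enrichment of -0.13 (-1.25 to 0.99).

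At the other end, TBK1 had the lowest enrichment, -0.60 (-0.68 to -0.52), with the control pull-down as its highest library. IFIT2 followed with -0.57 (-1.06 to -0.09), TLR3 with -0.48 (-1.34 to 0.38), IFIT3 with -0.46 (-0.78 to -0.15) and IFIT5 with -0.42 (-0.55 to -0.30). Of the 7 measured genes grouped as RNA-binding effectors 6 were below 0, ADAR being the exception at 0.03 (-0.02 to 0.08), and the interval excluded 0 for 4. All 4 measured membrane effectors were above 0 with intervals that excluded it. This group was BST2 and the near-identical IFITM1, IFITM2 and IFITM3, whose split of counts is uncertain. Of all genes 49.9% lay below 0, and the interval excluded 0 above it for 29.6% and below it for 31.0%. These role groups are small and the difference between them was not tested.

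**Figure D2:**
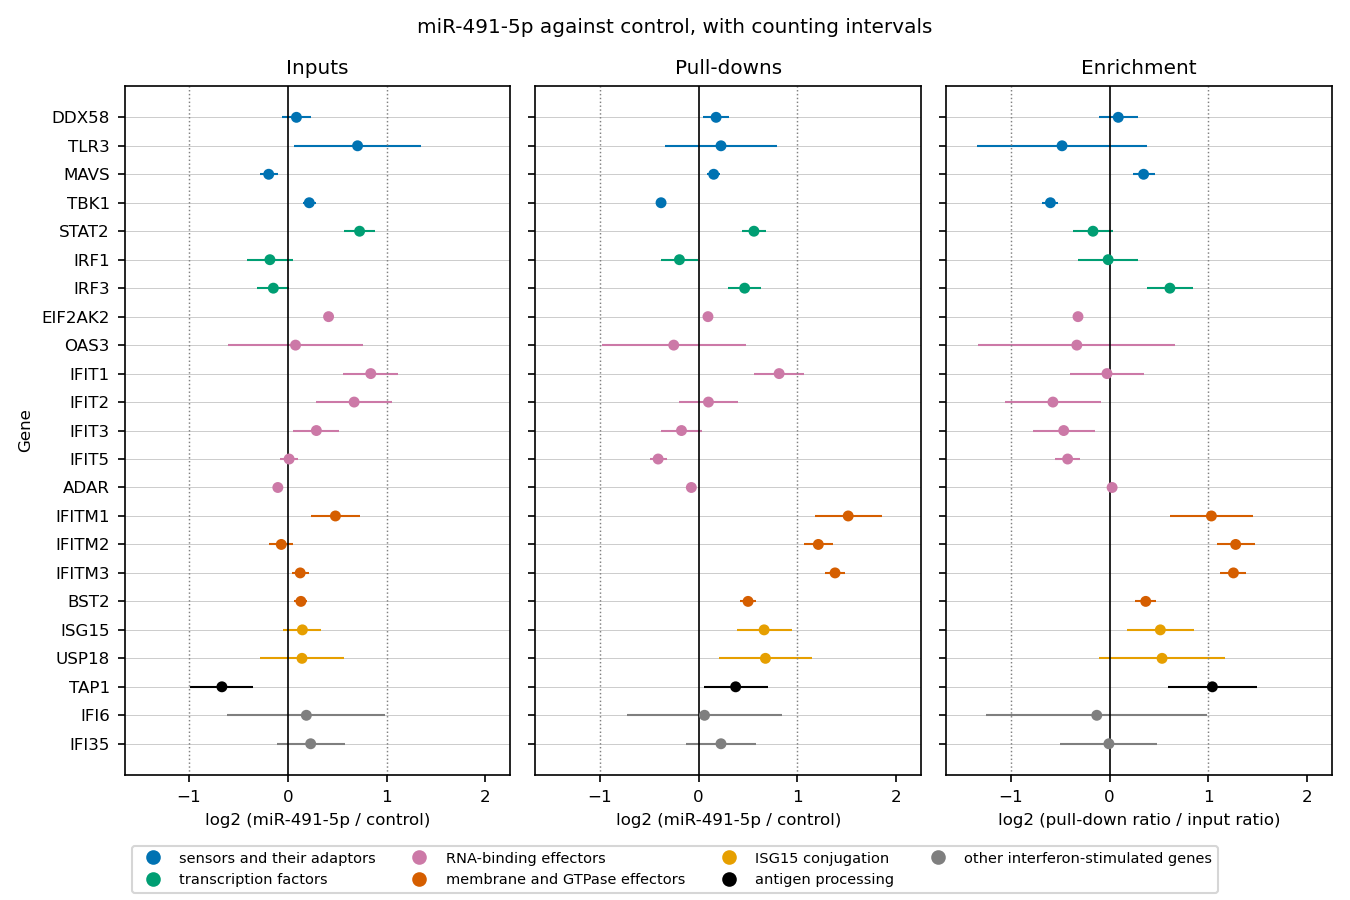
Log2 ratio of miR-491-5p to control in the inputs, in the pull-downs, and the enrichment, for the 23 measured genes coloured by role, with 95% counting intervals as bars and dotted lines at 2-fold. IFITM1, IFITM2, IFITM3 and TAP1 lie beyond 1 in the enrichment, at 1.03, 1.28, 1.25 and 1.04, and no gene lies beyond either line in the inputs.

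The third comparison asked which of these RNAs the beads held relative to the lysate, as pull-down over input within each transfection. ISG15 and BST2 were low on the beads in both transfections, and the IFITM genes were low on the control beads. With the control 0 of the 23 genes were called higher and 5 lower (ISG15, IFITM1, IFITM2, IFITM3 and BST2), against 8.61% and 10.0% of all genes. With miR-491-5p 0 were called higher and 1 lower (ISG15), against 5.33% and 4.96%. The median log2 bead ratio was -0.24 (miR-491-5p) and -0.21 (control), where the medians of all genes were -0.15 and -0.15. A bead ratio below 0 was found for 18 genes with miR-491-5p and for 14 in the control, as for 60.2% and 57.9% of all genes. This count depends on the scaling: values above 0 numbered 5 and 9 of 23 here, 10 and 11 of 23 with TMM, and 13 and 11 of 22 with total counts, where the median with miR-491-5p turned from -0.24 to 0.11. Of all genes 50% and 49.9% were above 0 with TMM, and 62.7% and 49.6% with total counts. The interval excluded 0 below it for 13 and 10 genes, against 47.5% and 46.5% of all genes, and above it for 2 and 5, against 26.8% and 30.8%.

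ISG15 (chr1:1001138-1014541) had the lowest bead ratio in both transfections, -1.21 (-1.42 to -1.0) for miR-491-5p, -1.73 (-1.99 to -1.46) for the control. Both of its pull-down counts, 456 and 288, were below both of its input counts, 1058 and 955. BST2 (chr19:17402939-17405648) had bead ratios of -0.82 (-0.88 to -0.75) for miR-491-5p and -1.18 (-1.26 to -1.10) for the control. Its pull-down counts, 5151 and 3642, likewise lay below its input counts, 9075 and 8271. Since pull-down and input of a transfection came from the same lysate, the bead effect common to both was tested in edgeR, in a model that blocks on the transfection and leaves 1 residual degree of freedom. By this test, with adjustment over all 12662 genes, ISG15 fell by 1.32 on the log2 scale (adjusted p = 0.0236) and BST2 fell by 0.85 (adjusted p = 0.0437), lower in both of 2 transfections each. The count was 0 of 23 genes higher and 2 lower, against 6.82% and 5.09% of all genes. At an unadjusted p under 0.05 it was 1 higher and 4 lower, against 16.8% and 15.3% of all genes, and DESeq2 called 0 higher and 3 lower, against 5.12% and 10.5%. BST2 did not pass without the block (adjusted p = 0.0534), where MAVS passed as higher (adjusted p = 0.0496).

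The IFITM genes had lower bead ratios in the control than with miR-491-5p. IFITM3 had a bead ratio of -1.36 (-1.46 to -1.25) with the control and -0.10 (-0.18 to -0.03) with miR-491-5p, a value that turned to 0.05 with TMM scaling and to 0.22 when scaled to total counts. In that order IFITM2 had -1.54 (-1.69 to -1.38) and -0.26 (-0.38 to -0.15), the second turning to 0.06 when scaled to total counts. IFITM1 had -1.64 (-2.0 to -1.29) and -0.61 (-0.84 to -0.39), below 0 under each scaling. The edgeR test of the effect common to both transfections gave adjusted p-values of 0.218, 0.136 and 0.0754 for IFITM3, IFITM2 and IFITM1. The difference between transfections is the enrichment given before, and with 1 library per group it was not tested.

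With the control the remaining genes lay nearer to 0 than ISG15, BST2 and the IFITM genes. With miR-491-5p this did not hold, as OAS3 and MAVS lay further from 0 than the IFITM genes. MAVS had the highest bead ratio with miR-491-5p, 0.71 (0.63 to 0.79), and was above 0 with the control too, at 0.37 (0.29 to 0.45), for an edgeR log2 change of 0.69 (adjusted p = 0.0722). TBK1 was the highest with the control, at 0.57 (0.51 to 0.63), and had -0.03 (-0.09 to 0.02) with miR-491-5p, which turned to 0.12 with TMM. IFIT2 was close to TBK1 with the control, at 0.53 (0.15 to 0.91). TAP1 and USP18 were low on the control beads, at -0.99 (-1.31 to -0.67) and -0.93 (-1.43 to -0.44), as was IRF3 at -0.78 (-0.96 to -0.61). With miR-491-5p these 3 genes had 0.05, -0.40 and -0.17. OAS3 had -0.81 (-1.50 to -0.12) with miR-491-5p and -0.48 (-1.20 to 0.24) with the control, on 46.1 and 55.1 normalised counts in the pull-downs. In the same order IFIT5 had -0.55 (-0.64 to -0.46) and -0.13 (-0.22 to -0.04), and IFI35 had -0.52 in both. EIF2AK2, ADAR, DDX58, STAT2, IRF1, IFIT1, IFIT3, TLR3 and IFI6 lay between -0.46 and 0.22 in both transfections. TMM moved the median bead ratio of all genes up by 0.148 (miR-491-5p) and 0.147 (control), so other values that close below 0 turn too.

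**Figure D3:**
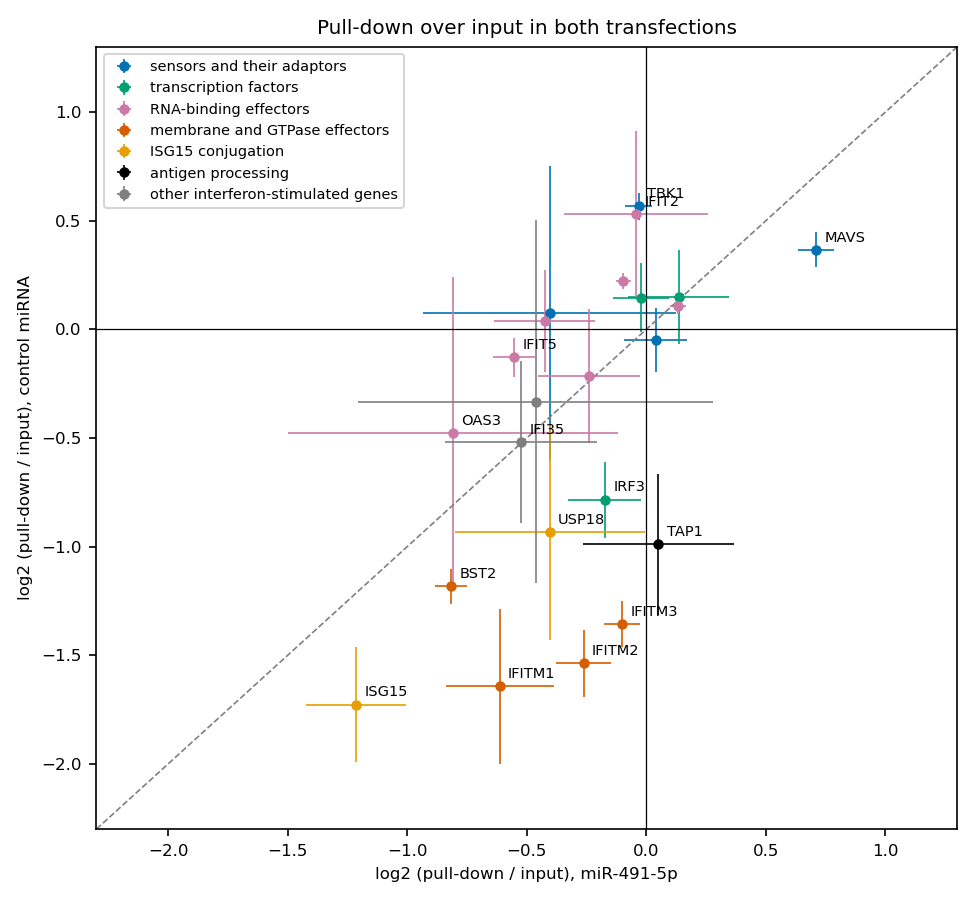
Log2 pull-down over input, miR-491-5p on the horizontal and control on the vertical axis, for the 23 measured genes coloured by role, with 95% counting intervals and a dashed line of equal values. ISG15 is lowest on both axes, at -1.21 and -1.73, and the IFITM genes lie below the dashed line, at -1.36 to -1.64 on the vertical axis.

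The 5 genes called low on the beads were all short. Across the 23 genes the bead ratio had a Spearman rho with summed exon length of 0.63 (miR-491-5p) and 0.72 (control), against 0.25 and 0.29 over all 12662 genes. These are descriptions over genes of the same libraries, not tests. IFITM1, IFITM2 and IFITM3, whose split of counts is uncertain, are among the 23 genes and are not separate points. Of the 23 genes 6 had exons summing to at most 1600 bases, a limit chosen after the values were seen, namely IFI6, ISG15, IFITM1, BST2, IFITM3 and IFITM2. ISG15 had 942 bases, IFITM1 1080, BST2 1119, IFITM3 1348 and IFITM2 1543, while MAVS had 11771. IFI6 was called in neither transfection, at -0.46 (miR-491-5p) and -0.33 (control). Low values were not confined to short genes, as TAP1, USP18 and IRF3 had -0.99, -0.93 and -0.78 with the control. The 6 short genes had a median bead ratio of -1.45 with the control and -0.54 with miR-491-5p, and the 17 longer ones had 0.04 and -0.10. All 1058 measured genes of at most 1600 bases had medians of -0.56 and -0.50, and 33.2% of them were called lower on the control beads and 21.2% on the miR-491-5p beads. The median of short genes was thus lower on both beads. They were also called higher more often, 12.9% with the control and 7.84% with miR-491-5p, against 8.61% and 5.33% of all genes. In the enrichment, in contrast, all short genes had a median of 0.00 and the 6 listed ones 0.77. Of these 6, IFITM1, IFITM2 and IFITM3 had 1.03, 1.28 and 1.25, and BST2, ISG15 and IFI6 had 0.37, 0.51 and -0.13. Whether length has a part in the values of single genes was not tested.

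**Figure D4:**
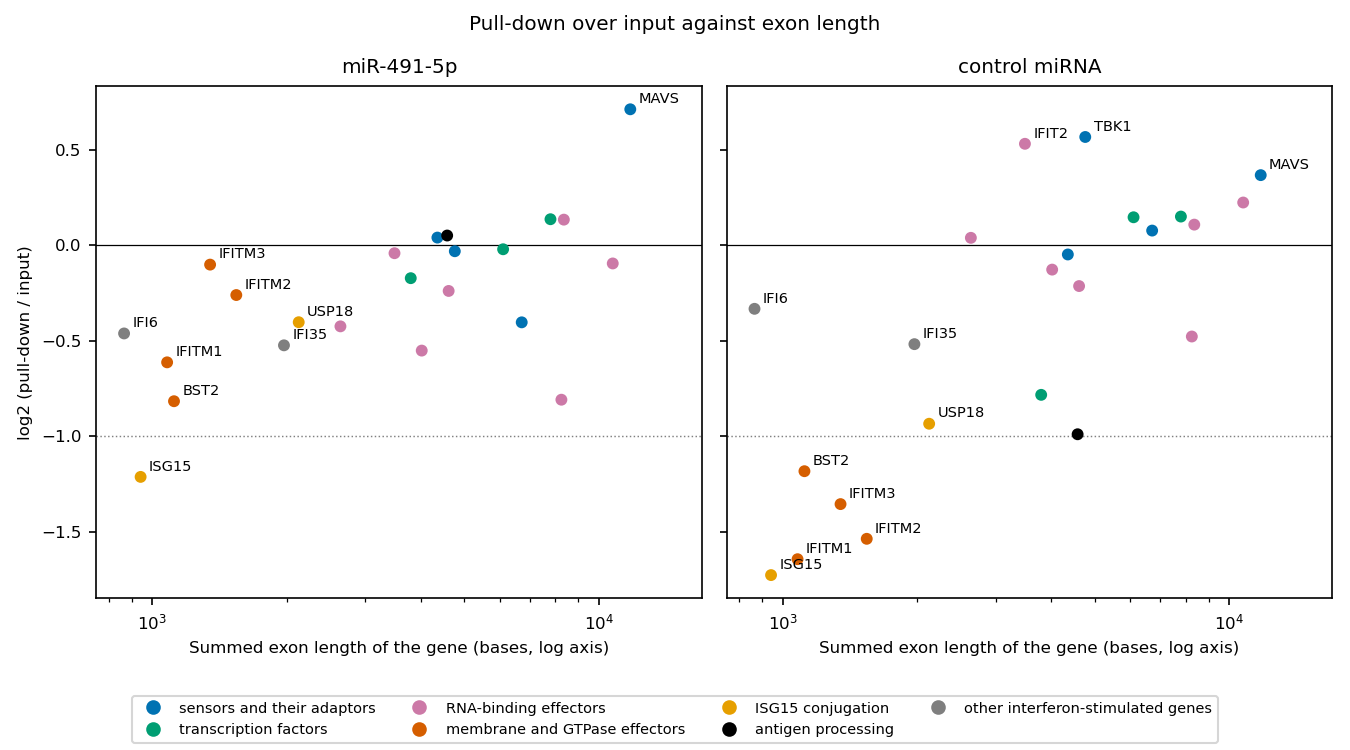
Log2 pull-down over input against summed exon length (bases, log axis) for the 23 measured genes coloured by role, with a dotted line at 2-fold lower. With the control the 5 genes past that line, ISG15, IFITM1, BST2, IFITM3 and IFITM2, have 942 to 1543 bases, and MAVS, with 11771 bases, has 0.37.

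Other genes of the pathway were taken from a list of 95, of which 59 were measured. The interferons themselves had few counts, with 0 of 9 measured. IFNA2, IFNL2, IFNL3 and IFNG had 0 counts in every library, and IFNB1, the interferon made first after RNA sensing, had 4, 0, 0 and 0 counts. IFNE, an interferon of the reproductive tract, had the most, 2, 60, 7 and 36 counts. CXCL10 and RSAD2, both strongly induced by interferon in many cells, had 0, 8, 10 and 4 counts and 2, 2, 0 and 7 counts. All 10 receptor chains and Janus kinases were measured, with a median input ratio of -0.08. Over the 59 genes 0 were called higher and 1 lower in the inputs, 1 and 2 in the pull-downs, 3 and 1 in the enrichment, 3 and 3 on the miR-491-5p beads, and 0 and 7 on the control beads. The shares of all genes called in the same order were 0.656% and 0.498%, 2.50% and 3.17%, 4.35% and 5.10%, 5.33% and 4.96%, and 8.61% and 10.0%. The medians of these 5 comparisons were -0.03, 0.13, 0.19, -0.13 and -0.33, the medians of all genes being -0.01, 0.01, 0.00, -0.15 and -0.15.

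UNC93B1, which escorts nucleic-acid-sensing Toll-like receptors to endosomes, had 182, 609, 702 and 311 normalised counts. Its input ratio was -1.94 (-2.29 to -1.60) and its enrichment 2.91 (2.48 to 3.34), or 7.52-fold, and as the gene has near-identical copies in the genome its counts are uncertain. IRF5, a transcription factor downstream of Toll-like receptors, had 1047, 2173, 952 and 721 normalised counts and an enrichment of 1.45 (1.20 to 1.70). The miR-491-5p pull-down alone was high. LGALS3BP, a secreted glycoprotein induced by interferon, had 6743, 8372, 7351 and 4264 normalised counts and an enrichment of 1.10 (1.00 to 1.20). B2M, the light chain of MHC class I, had 8219, 4585, 6178 and 7945 normalised counts and an enrichment of -1.20 (-1.30 to -1.10). IFNAR2, a chain of the type I interferon receptor, had 490, 399, 594 and 955 normalised counts and a pull-down ratio of -1.26 (-1.48 to -1.04). B2M and IFNAR2 thus stood opposite to IRF5 in the pull-downs. CXCL8, the neutrophil chemokine interleukin-8, had 514, 219, 750 and 641 normalised counts and a pull-down ratio of -1.54 (-1.83 to -1.26). TICAM1, the adaptor TRIF of TLR3, had 154, 319, 193 and 224 normalised counts and a bead ratio of 1.05 (0.67 to 1.44) with miR-491-5p. HERC6, of the same ligase family as HERC5, had the largest input ratio above 0 of the list, 0.43 (-0.28 to 1.14).

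Antigen processing had the lowest median bead ratio with the control among the role groups of this list, -0.91 over its 10 measured genes beside TAP1, and -0.55 with miR-491-5p. PSME1 and PSME2, the subunits of the proteasome activator PA28, fell by 0.98 (adjusted p = 0.0307) and by 0.94 (adjusted p = 0.0329) on the log2 scale in the edgeR test, lower in both transfections. PSME1 had 5720, 2961, 5824 and 2350 normalised counts. These were the only genes of the 59 that passed in that test, in which 0 were higher and 2 lower, against 6.82% and 5.09% of all genes. HLA-C, a heavy chain of MHC class I, had a bead ratio of -1.09 (-1.26 to -0.91) with the control and -0.49 with miR-491-5p. Its count is uncertain since it resembles other genes of its family. PSMB10, an immunoproteasome subunit, had -1.22 (-1.76 to -0.68) with miR-491-5p and -0.87 (-1.45 to -0.29) with the control. In the double-stranded RNA group, PRKRA, an activator of PKR, had -1.02 (-1.13 to -0.90) with the control and -0.83 with miR-491-5p. Its adjusted p was 0.0513 in the edgeR test and 0.0141 to 0.0412 in the alternatives of that test, so that it passed in each of those. ISG20, an exonuclease, had -1.18 (-1.94 to -0.42) with the control and -0.91 with miR-491-5p. SP100, a nuclear body protein induced by interferon, had -1.02 (-1.16 to -0.87) with miR-491-5p.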

How the data were processed

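The authors deposited whole-number, unnormalised counts of reads for each gene. Per the file headers, featureCounts 1.5.0-p1 counted reads over GENCODE 24 genes of hg38, singly for each mate, without regard to strand, without reads marked as duplicates or fitting several places. Summed exon lengths are a column of the same deposited table, used for TPM. STAR (its version is not given in the sources used here), GRCh38 and DESeq2 1.10.1 appear in the submitters' processing notes. TruSeq stranded total RNA libraries were sequenced, per the labels' protocols. Of gene counts from 1 to 10, 58.8% to 65.6% were even, so counting error was taken on read pairs.

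Counts were divided by size factors (0.957, 1.24, 0.778 and 1.13) calculated apart by the rule that DESeq2 uses, 1 was added, and ratios were taken as log2. DESeq2 1.42.0 itself was run only as an alternative test, with these size factors. A gene was called at 2-fold or more with a 95% interval excluding 0, among 12662 of 60554 genes with a mean of at least 50. Pull-down against input was tested with edgeR 4.0.16 (quasi-likelihood, TMM, transfection as a block) and Benjamini-Hochberg adjustment over these genes. The calculations were tested on simulated data.

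The table holds gene identifiers only. Names came from positions of RefSeq genes on GRCh38.p14: both ends within 20 bp, or an overlap of at least 0.4 of the joint span, leading the next by 0.2, and 1 end within 2000 bp, or an end within 20 bp with that lead. IFITM2, IFITM3, ISG15 and PSMB9 were named by exon ends within 300 bp of both RefSeq ends, a limit chosen after seeing which genes had missed. This named 39 of 39 listed genes, 95 of 97 other pathway genes and 40 of 40 markers. The listed genes, the other lists and the rules were chosen with earlier results of these data known. Listed genes were named where called, among the 5 highest or lowest of a comparison or the highest of their role, or under the minimum. Other pathway genes were named where called or among the 3 largest values of the inputs, the enrichment or the mean bead ratio, and interferons and CXCL10, RSAD2 after their counts were seen. Of the other pathway genes called, 1 is not reported here. Alternatives were TMM and total-count scaling, a pseudocount of 5, minimum counts of 10 and none, 1.5-fold, a stricter position match (overlap 0.5, end within 1000 bp), and, for the test, no block, filterByExpr, DESeq2 and its size factors, with reads as independent counts added later.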

Additional observations from a re-analysis of the deposited data

Results flagged for a closer look

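Pull-down over input lay on opposite sides of 0 in the 2 transfections, with both intervals excluding 0, for 1 of the 23 listed genes and 11 of the 59 other pathway genes, where 11.3% of all genes did so. Values are given for the 6 of these that the rule for named genes takes in. With 1 library per group the difference was not tested. EIF2AK2, the kinase PKR, had a log2 bead ratio of -0.0959 (miR-491-5p) and 0.223 (control), and the first turned to 0.05 with TMM scaling and to 0.22 with total counts. IFNAR2 had -0.297 and 0.685, the first turning to 0.02 with total counts. B2M had -0.842 and 0.363. The other 3 were above 0 with miR-491-5p but below 0 in the control under each scaling. UNC93B1 had 1.74 and -1.17, IRF5 had 1.05 and -0.40, and LGALS3BP had 0.312 and -0.786. Both inputs enter these ratios, and the 2827 hepatocyte marker counts of the control input, against 25 in the miR-491-5p input, lie beside them without their part having been tested.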

How the results depend on the processing

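The labels give no replicate numbers to pair beyond the transfection, which the edgeR test blocks on, and with 1 library per group none was left out. Of 169 alternative values of the counts of called genes and of the 5 most abundant genes, 132 lay within 1.5 times the main value. A count of 0 that stayed 0 is included in these, so the share says little of how firm single calls are. Medians did turn sign: with total counts that of the listed genes moved from -0.24 to 0.11 on the miR-491-5p beads and from -0.01 to 0.19 in the enrichment, and that of all genes from -0.15 to 0.17 on the miR-491-5p beads. TMM scaling moved the median bead ratio of all genes by 0.148 (miR-491-5p) and 0.147 (control), and total counts by 0.319 and 0.140, with 0.155 for the pull-downs and 0.179 for the enrichment. The share of higher genes among all calls was 51.8% and 46.2% on the beads, 73.9% and 63.8% with TMM and 91.0% and 63.0% with total counts, and with total counts it moved from 44.0% to 66.7% in the pull-downs and from 46.0% to 66.6% in the enrichment. On the miR-491-5p beads total counts gave 1 listed gene higher (MAVS) and 0 lower, against 10.3% and 1.02% of all genes.

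At 1.5-fold the listed genes called were 4 higher and 1 lower in the inputs, 6 and 0 in the pull-downs, 5 and 1 (TBK1) in the enrichment, 1 and 4 on the miR-491-5p beads and 0 and 8 on the control beads. The shares of all genes at 1.5-fold were 2.71% higher and 2.62% lower in the inputs, 9.75% and 10.5% in the pull-downs, 11.9% and 13.0% in the enrichment, 12.1% and 20.5% on the miR-491-5p beads and 17.1% and 26.6% on the control beads. The stricter position match, which drops IFITM2, IFITM3 and ISG15, left 1 higher in the pull-downs, 2 in the enrichment, 0 lower on the miR-491-5p beads and 2 lower on the control beads. It left the shares of all genes unchanged, at 2.5%, 4.35%, 4.96% and 10%. In the edgeR test leaving out the block gave 1 higher and 1 lower, where 761 and 790 of all 12662 genes were called. With more genes tested, filterByExpr gave 4 of 30 lower, where 1532 of all 18050 genes were. IFITM1 also passed with DESeq2 and with its size factors in edgeR.

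For the other pathway genes, 1.5-fold gave 6 higher and 8 lower in the pull-downs, 10 and 8 in the enrichment, 5 and 11 on the miR-491-5p beads and 3 and 14 on the control beads. The shares of all genes at 1.5-fold are those given above. Total counts gave 4 higher in the pull-downs, 6 in the enrichment and 0 lower on the miR-491-5p beads, against 4.14%, 6.83% and 1.02% of all genes. Like TMM, total counts gave 1 higher and 4 lower on the control beads. There the shares of all genes were 10.9% and 6.43%, and 11% and 6.27% with TMM. A minimum of 10 or none gave 2 lower in the inputs, 5 higher on the miR-491-5p beads and 1 higher on the control beads. In that order 1.09%, 9.77% and 11.9% of all genes were so called with a minimum of 10, and 0.634%, 5.3% and 6.18% with none. Depth limits the genes with mean normalised counts under 100, TLR3, OAS3 and IFI6, whose intervals span over 1 log2 unit.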
